A study of Mus musculus with 6 samples.

Results

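The glucocorticoid receptor gene Nr3c1 and 9 genes known to be induced through it were followed in WT and leene-KO mice. The material was cells enriched for lung endothelial cells (ECs), which also held transcripts of other lung cell types, described below. The 10 genes (Nr3c1, Tsc22d3, Fkbp5, Zbtb16, Sgk1, Map3k6, Errfi1, Ddit4, Fam107a and Hif3a) were found by their symbols among the 47729 genes of the count tables. They were named with results of the same KO against WT comparison known, so their levels are given as a description, without a test. The series holds 3 WT and 3 KO libraries of poly(A)-enriched RNA, and all 10 genes passed edgeR's filter on low counts.

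Every animal was a male mouse of 14 weeks on normal chow, infused with angiotensin II (AngII) at 1000 ng/kg/min from an osmotic pump for 2 weeks, WT mice included. KO mice, on the C57BL6 background, carry a germline CRISPR-Cas9 deletion of the region that holds the lncRNA gene leene and neighbouring lncRNA genes, and WT mice were their littermates. The labels describe CD31-enriched cells of 3 mice per group pooled before RNA extraction, whereas the study's methods describe sorting for CD144, so a library may hold 1 mouse or part of a pool and p-values measure the spread between libraries. Genotypes were taken from the labels, and leene itself was not analysed here.

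Nr3c1 encodes a nuclear receptor that waits in the cytosol in a complex with HSP90 and its cochaperones. On binding cortisol or, in rodents, corticosterone, the receptor moves to the nucleus and binds DNA at glucocorticoid response elements, palindromes of the arm AGAACA and its reverse complement, and there raises the transcription of a well-known group of genes. Glucocorticoids are known to act on blood vessels and lung, and their level in blood follows a daily rhythm.

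RefSeq's table of transcript starts on GRCm38.p6, the build of the counted annotation, held 18 starts of 8 of the 10 genes. Nr3c1 and Zbtb16 had no entry. The 250 bases before each start were searched on both strands for the full palindrome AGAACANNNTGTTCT, for its core GNACANNNTGTNC, which lies inside the full palindrome, and for the single arm AGAACA. The windows below are shown because they hold the closest match of each gene, in capitals, and bases in an annotated UTR were left off.
Sgk1, chr10:21993640-21993889, plus strand: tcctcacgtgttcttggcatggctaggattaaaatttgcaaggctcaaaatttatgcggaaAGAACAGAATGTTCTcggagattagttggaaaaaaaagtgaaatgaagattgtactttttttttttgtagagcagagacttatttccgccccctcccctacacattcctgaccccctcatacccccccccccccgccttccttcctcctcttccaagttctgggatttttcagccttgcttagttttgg
Map3k6, chr4:133240568-133240817, plus strand: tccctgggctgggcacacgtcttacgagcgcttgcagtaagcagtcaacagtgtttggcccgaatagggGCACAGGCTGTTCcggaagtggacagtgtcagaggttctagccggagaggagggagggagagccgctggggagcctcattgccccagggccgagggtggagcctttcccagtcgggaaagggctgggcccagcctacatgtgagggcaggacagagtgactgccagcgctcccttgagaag
Fam107a, chr14:8309796-8310029, minus strand: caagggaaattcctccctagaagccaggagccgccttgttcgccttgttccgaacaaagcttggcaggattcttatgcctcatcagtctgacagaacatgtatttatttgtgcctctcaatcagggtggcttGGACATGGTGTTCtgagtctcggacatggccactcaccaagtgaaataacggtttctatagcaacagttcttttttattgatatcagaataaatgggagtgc
Tsc22d3, chrX:140600660-140600772, minus strand: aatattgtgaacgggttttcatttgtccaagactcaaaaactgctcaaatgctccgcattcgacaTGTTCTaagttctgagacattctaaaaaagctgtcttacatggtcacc

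The Sgk1 window lies within the gene, outside every annotated exon, before an internal start, and its capitals mark the full palindrome, 189 to 175 bases before that start. Of 32851 windows in the table, 3 held the full palindrome (0.00913%), and this window was the only one of the 18. The capitals in Map3k6 and Fam107a mark the core, which 0.387% of all windows and 4 of the 18 held, those of Sgk1 and of a second, overlapping Fam107a window included. The match lies 181 to 169 bases before the start of Map3k6, outside annotated genes, and 118 to 106 bases before an internal start of Fam107a. In the Tsc22d3 window, at the 5′ end of the annotated gene, the capitals mark a single arm, 185 to 180 bases before the start, which 16.1% of all windows held. The windows of Errfi1, Ddit4, Hif3a and Fkbp5 held none of the 3 motifs, which says only that these letters are not within 250 bases before those starts. Of 26 other induced targets in the table (part of a list described further on), 1 (Mt1) had a core match and 0 the full palindrome. The single arm was found for 3 of them (Bcl6, Cd163 and Lpin1).

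Total counts lay between 24464324 and 35184063 in the 6 libraries, and mitochondrial genes took 37.4% to 54.5% of them. Levels are given below as CPM, counts per 1000000 reads counted in genes, on library sizes scaled by edgeR's TMM method, and log2 fold changes (KO minus WT) with standard errors (SE) come from edgeR's quasi-likelihood fit over the 14625 genes that passed the filter. Over all of these genes the median log2 fold change was 0.03, and it was -0.13 when libraries were scaled by total counts only. An unadjusted p under 0.05 in edgeR's test was found for 1506 of the 14625 genes, to be set beside such counts of each list below. Without any one of the KO libraries the test called 0 genes, with 986 to 1112 at an unadjusted p under 0.05 (DESeq2 was run on all 6 libraries only), and without WT replicate 2 it called 791. In bulk RNA, fewer cells that express a gene and less RNA of it per cell cannot be told apart.

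The receptor gene was at nearly the same level in both groups, while 9 of the 10 genes, all of them induced targets, were lower in every KO library than in every WT library. Zbtb16, Hif3a and Fkbp5 differed most, at a WT mean 4.76, 5.23 and 4.09 times the KO mean, and Sgk1 least, at 1.30 times. Over all genes tested, 9.2% were lower in every KO than in every WT library. A log2 fold change below -1 was found for 8 of the 10, and for 1.26% of all genes. The median log2 fold change of the 10 genes was -1.63. Since the genes were picked from this comparison, nothing is read from these counts.

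**Figure D1:**
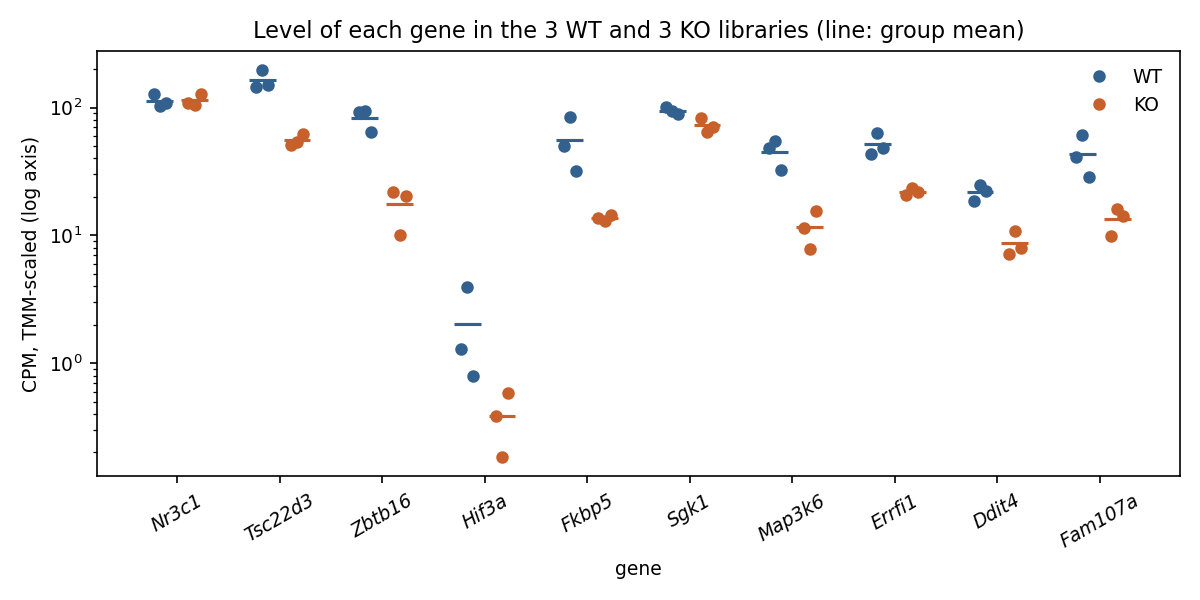
Each point is the level of a gene in 1 library, in TMM-scaled CPM on a log axis, for the 3 WT (blue) and 3 KO (orange) libraries, and the lines are group means. The groups overlap for Nr3c1 only, at 102 to 127 CPM in WT and 105 to 127 CPM in KO, and Hif3a is the least abundant, at 0.184 to 3.96 CPM.

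Nr3c1 (ENSMUSG00000024431, chromosome 18, 39410545 to 39519421, minus strand of GRCm38) was at 127, 102 and 109 CPM in WT libraries, by replicate number from 1 to 3 as in all such lists below, and at 108, 105 and 127 CPM in KO libraries. The groups lay over each other. Its log2 fold change was 0.01 (SE 0.15), and it turned negative under other scalings, to -0.18 at the most, with total counts only.

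Tsc22d3 (chromosome X, 140539528 to 140600659, minus strand) encodes GILZ, a leucine zipper protein through which glucocorticoids restrain inflammatory transcription factors. It was at 145, 196 and 149.7 CPM in WT against 50.5, 53.8 and 62.4 CPM in KO. The lowest WT library was thus well above the highest KO library, and WT replicate 2 was the highest of the 6. The log2 fold change was -1.56 (SE 0.18), and the KO mean was 34.0% of the WT mean.

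Zbtb16 (chromosome 9, 48654297 to 48836222, minus strand) encodes the zinc finger repressor PLZF. It was at 92.0, 93.5 and 64.8 CPM in WT against 22.0, 10.2 and 20.5 CPM in KO, a log2 fold change of -2.25 (SE 0.30). KO replicate 2 was lowest, and no KO library came near a WT library. Hif3a (chromosome 7, 17031507 to 17062427, minus strand), which encodes a hypoxia-inducible factor subunit that can act as an inhibitor of the family, rested on few counts, with 53, 135 and 17 reads in WT and 9, 5 and 17 reads in KO. That came to 1.30, 3.96 and 0.796 CPM in WT against 0.387, 0.184 and 0.586 CPM in KO. WT replicate 2 held most of its reads, and the log2 fold change of -2.38 (SE 0.71) was -1.48 without that library.

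Fkbp5 (chromosome 17, 28399094 to 28517527, minus strand) encodes a cochaperone that lowers the affinity of the receptor for hormone and so closes a feedback loop. It was at 50.4, 84.9 and 31.8 CPM in WT against 13.7, 12.9 and 14.4 CPM in KO. The WT libraries differed among themselves by 2.67 times from the lowest to the highest, the KO libraries by 1.11 times. The log2 fold change was -2.03 (SE 0.33).

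The kinases differed from each other. Sgk1 (chromosome 10, 21882184 to 21999903, plus strand), a kinase that promotes sodium uptake and is also induced through the mineralocorticoid receptor, was at 100.1, 93.6 and 88.9 CPM in WT against 82.2, 64.9 and 71.0 CPM in KO, a log2 fold change of -0.37 (SE 0.14) that was -0.56 with total counts only. Its groups were separated by a narrow gap between WT replicate 3 and KO replicate 1. Map3k6 (chromosome 4, 133240818 to 133252929, plus strand), a stress-activated kinase of the MAPK cascades, was at 47.8, 54.6 and 32.5 CPM in WT against 11.5, 7.87 and 15.5 CPM in KO, a log2 fold change of -1.95 (SE 0.29). Sgk1 thus had the smaller difference of the pair. The part of the motifs shown above in these levels was not tested.

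Errfi1 (chromosome 4, 150853919 to 150868892, plus strand) encodes an inhibitor of the EGF receptor family. It was at 43.0, 62.8 and 48.4 CPM in WT against 20.6, 23.5 and 21.9 CPM in KO, a log2 fold change of -1.22 (SE 0.17). Ddit4 (chromosome 10, 59949669 to 59951834, minus strand), which encodes the mTORC1 inhibitor REDD1 and is induced by hypoxia as well, was at 18.7, 24.7 and 22.1 CPM in WT against 7.18, 10.9 and 7.93 CPM in KO, a log2 fold change of -1.33 (SE 0.20). Both signalling inhibitors were lower in KO by similar amounts, with KO means at 42.8% and 39.7% of the WT means.

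Fam107a (chromosome 14, 8296274 to 8318023, minus strand) encodes an actin-associated protein. It was at 41.0, 60.8 and 28.8 CPM in WT against 9.80, 16.1 and 14.1 CPM in KO. WT replicate 2 was again the highest library, and the log2 fold change was -1.70 (SE 0.30).

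Of the 10 genes, 1 (Tsc22d3) had an adjusted p under 0.05 in the quasi-likelihood test of edgeR after Benjamini-Hochberg adjustment over all genes, where 0.109% of all genes did and 0.0752% were called lower in KO. DESeq2, the tool named in the study's methods, called 8 of the 10, all but Nr3c1 and Sgk1, with 1.21% of all genes called, 0.64% lower in KO. The number called by edgeR was 7 without WT replicate 2, 2 without WT replicate 1 and 0 without WT replicate 3 or any of the 3 KO libraries. Over all genes tested, 791 of 14950 were called without WT replicate 2 (131 lower) and 24 of 14958 without WT replicate 1 (15 lower). Without WT replicate 3 it was 13 of 15109, and without any KO library 0. The comparison chose the genes, so these counts are a description.

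Compared per kilobase of counted exon length, Tsc22d3 was the most abundant of the 10 in WT, at 37.7 ± 6.56 CPM per kb (SD, n = 3). Sgk1 (19.2 CPM per kb), Zbtb16 (16.4), Nr3c1 (15.2), Errfi1 (14.4), Ddit4 (13.0), Fam107a (11.2), Map3k6 (9.77) and Fkbp5 (8.76) followed, and each of these overlapped its neighbor in that order among the WT libraries. Hif3a was far below, at 0.301 ± 0.254 CPM per kb (SD, n = 3). In KO, Nr3c1 came first at 15.3 ± 1.58 CPM per kb (SD, n = 3), overlapping both Sgk1 (14.8) and Tsc22d3 (12.8). Errfi1 (6.15) and Ddit4 (5.14) overlapped each other below a gap. Fam107a (3.45), Zbtb16 (3.44), Map3k6 (2.53) and Fkbp5 (2.14) formed an overlapping run above Hif3a (0.0575), and the highest KO library of Zbtb16 (4.31) was just above the lowest of Ddit4 (4.26). Zbtb16 moved from just above the receptor gene in WT to well under it in KO.

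The WT libraries also differed among themselves. WT replicate 2 was the highest WT library for 8 of the 10 genes, all but Nr3c1 and Sgk1, where 38.4% of all genes tested had it highest. The choice of genes drew on these WT values, so nothing is read from this count. WT replicate 3 was the lowest for 6 of the 10. Among the KO libraries, replicate 2 was the lowest for 6 of the 10 genes, where 38.1% of all genes had it lowest. WT replicate 1 had the highest TMM factor, 1.37, against 0.874 to 1.04 in the other libraries. The WT libraries differed in alveolar type II transcripts as well. The 5 markers summed to 46390 CPM in WT replicate 2 against 4934 CPM and 14404 CPM in WT replicates 1 and 3, and WT replicate 1 was the lowest library. The KO libraries had sums of 36566 to 44951 CPM, near that of WT replicate 2, with the 9 induced genes at their lowest. The part of these cells in the levels was not tested. Without WT replicate 2, the median log2 fold change of the 10 genes was -1.43.

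**Figure D2:**
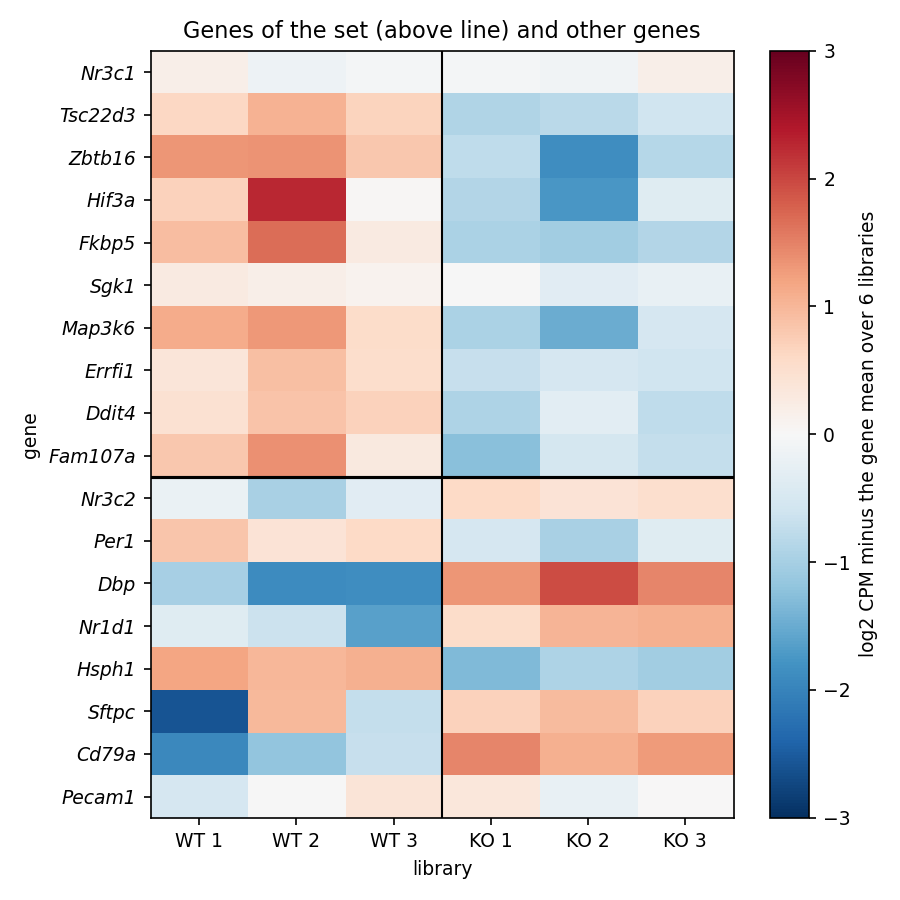
The heat map shows log2 CPM minus each gene's mean over the 6 libraries, from blue (lower) to red (higher), with the 10 genes above the line and 8 other genes below it. The 9 induced genes run from red or nearly white in WT to blue or nearly white in KO, palest for Sgk1, reaching 2.26 for Hif3a in WT replicate 2 and -1.86 for Zbtb16 in KO replicate 2, and Sftpc separates WT replicate 2 from the other WT libraries.

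The genes most like Nr3c1 and Tsc22d3 were found by the root mean square difference in centred log2 CPM over the 6 libraries. For Nr3c1 they included Tsr2, Sav1, Ablim1 and Vezf1, at 0.0182 to 0.0311, against a median of 0.301 over all genes. For Tsc22d3 they were Maff (0.148), Errfi1 (0.199), Cdkn1a (0.203), Cebpd (0.211) and Ahsa2 (0.225), against a median of 0.855. Maff encodes a small MAF factor, Cdkn1a the cell cycle inhibitor p21, Cebpd a C/EBP transcription factor and Ahsa2 an HSP90 cochaperone family member. Among the other genes of the set, Ddit4 (0.237) and Fam107a (0.285) came next, and Nr3c1 was at 0.812. The KO against WT difference is part of this measure, and edgeR's test called Maff, Cdkn1a and Ahsa2 lower in KO.

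Paralogs of the 10 genes mostly had small log2 fold changes, though some were separated between the groups. In 4 of the 11 tested (Tsc22d1, Tsc22d2, Hif1a and Fkbp4) every KO library was below every WT library, beside 9.2% of all genes. In 1 (Nr3c2) every KO library was above, beside 8.59%. Of 13 listed, 11 were tested, edgeR's quasi-likelihood test called 0 of them at an adjusted p under 0.05, and 3 had an unadjusted p under 0.05. DESeq2 called Fkbp4 lower and Nr3c2 higher. Log2 fold changes were -0.16 for Tsc22d1 (SE 0.13), -0.37 for Tsc22d2 (SE 0.15) and 0.04 for Tsc22d4 (SE 0.13), beside -1.56 for Tsc22d3. For the other hypoxia-inducible factors they were -0.27 for Hif1a (SE 0.13) and -0.10 for Epas1 (SE 0.36). Sgk3 (0.00, SE 0.12), Map3k5 (0.08, SE 0.15), Ddit4l (-0.07, SE 0.47) and Fam107b (-0.06, SE 0.11) lay close to 0. The signs of Tsc22d4, Epas1, Sgk3, Map3k5 and Ddit4l changed under some of the other settings. Sgk2 and Map3k15 were under the filter, at no more than 0.515 and 0.612 CPM. The differences between a gene and its paralog were not tested.

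**Figure D3:**
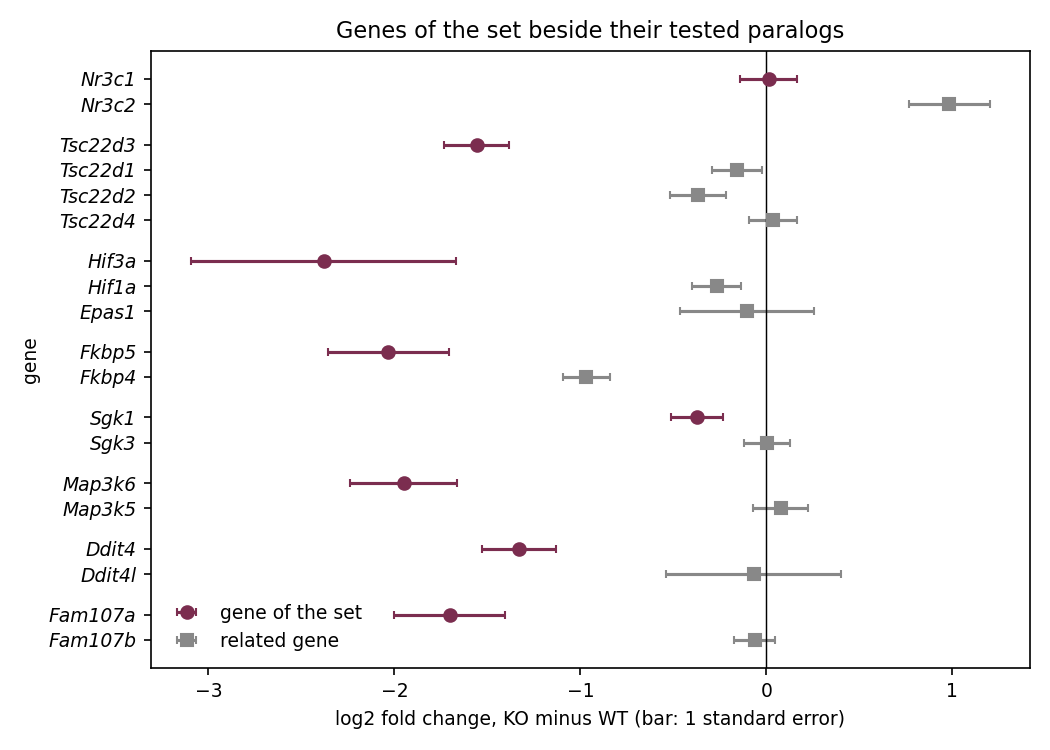
Points are log2 fold changes (KO minus WT) with bars of 1 SE, for 8 of the 10 genes (circles) and their tested paralogs (squares). Most squares sit within 0.4 of 0, with Fkbp4 at -0.97 and Nr3c2 at 0.98 as the exceptions, while circles other than Nr3c1 and Sgk1 lie below -1.

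The other genes of hormone access were next. Nr3c2, which encodes the mineralocorticoid receptor that binds the same hormones and the same DNA palindrome, was at 7.96, 4.61 and 7.26 CPM in WT against 13.9, 12.2 and 13.1 CPM in KO. The groups did not overlap, with a log2 fold change of 0.98 (SE 0.22, adjusted p = 0.259 in edgeR's quasi-likelihood test, 0.0439 in DESeq2). Pgr, the progesterone receptor gene, had 0.51 (adjusted p = 0.498 in the quasi-likelihood test). Hsd11b1, whose enzyme regenerates active corticosterone inside cells, was at 13.2, 33.4 and 27.5 CPM in WT against 32.8, 32.4 and 45.5 CPM in KO, with overlapping groups. H6pd, whose enzyme supplies the cofactor, was at 63.9, 273 and 94.9 CPM in WT against 191, 231 and 219 CPM in KO, and WT replicate 2 was the highest library. Hsd11b2, whose enzyme inactivates corticosterone, was low, at 0.514 to 1.94 CPM over the 6 libraries. The transporter genes Abcb1a and Abcb1b, whose products export steroids, had 0.47 (SE 0.36) and -0.18 (SE 0.20). Of the 8 genes, 3 were higher in every KO than in every WT library, Nr3c2 and Pgr among them, beside 8.59% of all genes. None was lower in every KO library. The median of the 8 was 0.54, edgeR called 0, with 2 at an unadjusted p under 0.05, and DESeq2 called 1.

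The chaperones that hold the receptor ready for hormone were mostly at lower levels in KO. All 12 were tested, their median log2 fold change was -0.90, and 9 were lower in every KO than in every WT library, beside 9.2% of all genes. EdgeR's quasi-likelihood test called 1 (0.0752% of all genes were called lower), Stip1, which encodes the cochaperone HOP that links HSP70 to HSP90. DESeq2 called 9, with 0.64% of all genes called lower. Stip1 fell to 39.7% of its WT mean, from 86.2, 67.7 and 83.4 CPM to 33.0, 29.1 and 32.1 CPM (log2 fold change -1.33, adjusted p = 0.0276), and its call was lost without WT replicate 3 or any KO library. Hsp90aa1, the inducible HSP90 gene, was at 93.5, 90.3 and 131 CPM in WT against 41.1, 40.5 and 29.3 CPM in KO (adjusted p = 0.0581). Hspa8, the constitutive HSP70 gene, had a log2 fold change of -1.33 (adjusted p = 0.0858) and Dnaja1, an HSP40 gene, -1.32 (adjusted p = 0.0524, all from edgeR's test). Fkbp4, which encodes the cochaperone that competes with the Fkbp5 product for the receptor complex, was at 111, 99.7 and 99.4 CPM in WT against 48.9, 52.8 and 56.6 CPM in KO (log2 fold change -0.97, SE 0.13, adjusted p = 0.0524). The 3 list members whose groups overlapped were Ppid, Ppp5c and Bag1. A list of 8 heat shock genes, which shares Hsp90aa1 and Dnajb1 with the chaperones and so is partly the same observation, had all 8 lower in every KO than in every WT library, with a median of -1.52 and 3 called (Hspa1b, which is nearly identical to Hspa1a so that its reads are uncertain, Hsph1 and Hspb1). Its part in the chaperone result was not tested. Both lists were chosen with earlier results of these data known, so their counts and calls are a description.

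The coactivators and corepressors of the receptor did not share that shift. Of 14 tested, edgeR and DESeq2 called 0 each, 2 had an unadjusted p under 0.05 in edgeR's test, and the median log2 fold change was -0.14. The coactivator gene Ncoa3 had -0.43 (adjusted p = 0.44), Crebbp, which encodes another coactivator, -0.27 (adjusted p = 0.528) and the corepressor gene Ncor1 -0.26 (adjusted p = 0.528, edgeR's quasi-likelihood test).

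A list of 30 further genes induced by glucocorticoids in other tissues or cells gave a more mixed picture. Of the 29 tested, edgeR called 1 lower and 0 higher, DESeq2 called 6 lower and 0 higher, and the median log2 fold change was -0.55. In 14 every KO library was below every WT library and in 1 above, where 9.2% and 8.59% of all genes tested were separated in these directions. Cdkn1a fell from 149.7, 156 and 156 CPM to 51.4, 42.0 and 47.5 CPM, a log2 fold change of -1.71 (adjusted p = 0.0168, edgeR's quasi-likelihood test) whose call was lost without any one of the KO libraries. It is also known as a target of p53. This list too was chosen with earlier results of these data known, so its counts and calls are a description.

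Cebpd was at 56.8, 59.8 and 68.0 CPM in WT against 16.3, 21.1 and 27.2 CPM in KO (log2 fold change -1.51, adjusted p = 0.0524 in edgeR's test). Mt2, a metallothionein gene, had -1.61 (SE 0.57) and was at 53.0 CPM in WT replicate 2 beside 13.4 and 12.4 CPM in the other WT libraries, and without replicate 2 it had -0.62. Pdk4, a kinase gene that restrains pyruvate use, had -1.23 (SE 0.33, adjusted p = 0.307). Among genes named after their values were seen, Per1, a clock gene with a known glucocorticoid response element, was at 43.0, 32.4 and 36.7 CPM in WT against 17.0, 12.3 and 18.9 CPM in KO (log2 fold change -1.22, adjusted p = 0.0954). Klf9 had -0.58 (adjusted p = 0.307) and the phosphatase gene Dusp1 -0.70 (adjusted p = 0.404, edgeR's quasi-likelihood test).

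Not all known targets were lower. Lcn2, also an epithelial and neutrophil gene, was at 80.9, 638 and 248 CPM in WT against 598, 487 and 364 CPM in KO, with overlapping groups. Rgs2 was the gene of the list that was higher in every KO library, with a log2 fold change of 0.46 (adjusted p = 0.412), and Bcl6 (0.02), Arrdc2 (-0.05) and Klf15 (-0.22) lay near 0. These 5 were named after their values were seen.

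Genes that glucocorticoids are known to repress were spread to both sides. Of 15 cytokine, chemokine, adhesion and protease genes 14 were tested, edgeR and DESeq2 called 0, 4 had an unadjusted p under 0.05 in edgeR's test, and the median log2 fold change was 0.15. Il1b had -1.39 (adjusted p = 0.468), with WT replicate 2 at 10.5 CPM and the other 5 libraries between 1.59 and 3.13 CPM, and it had -0.49 without that library. Mmp9 had 1.08 (adjusted p = 0.435), Nos2 0.86 (adjusted p = 0.411) and Il1a 0.28 (adjusted p = 0.788, edgeR's quasi-likelihood test).

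**Figure D4:**
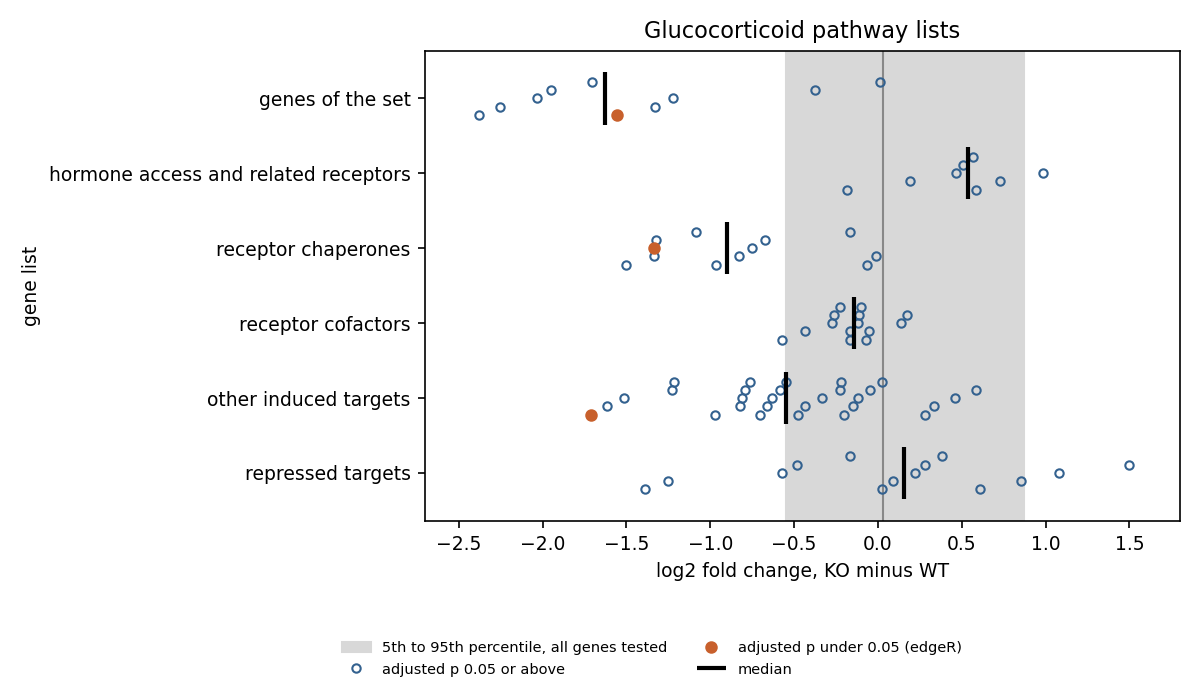
Each point is the log2 fold change (KO minus WT) of 1 gene, filled orange where edgeR's adjusted p is under 0.05, with the list median as a black bar, and the grey band spans the 5th to 95th percentile of all genes tested (-0.55 to 0.87). The medians run from -1.63 for the 10 chosen genes through -0.90 for the chaperones and -0.55 for the other induced targets to 0.54 for hormone access and related receptors.

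Genes that respond to other cues were looked at in the same libraries. Among 14 clock genes, Dbp, a clock output gene, rose to 8.99 times its WT mean (log2 fold change 3.15, adjusted p = 0.0188), Nr1d1 had 1.67 (adjusted p = 0.167), Nr1d2 1.28 (adjusted p = 0.0520) and Per3 1.46 (adjusted p = 0.259, edgeR's test). EdgeR called Dbp alone, a call lost without WT replicate 3 or any KO library, while DESeq2 called 6 higher and 1 lower. That 1 was Per1, which is also counted among the further induced targets above. Of the 14 clock genes, 7 were higher in KO and 4 lower with no overlap between groups, beside 8.59% and 9.2% of all genes. The 4 lower ones had log2 fold changes of -1.22 (Per1), -1.05 (Npas2), -0.84 (Cry1) and -0.49 (Arntl). Of 10 immediate early genes 0 were called by edgeR and 2 were called lower by DESeq2, which called 0.64% of all genes lower. In edgeR's test 5 of the 10 had an unadjusted p under 0.05, where 1506 of 14625 genes did. The largest differences were those of Atf3 at -1.90 (adjusted p = 0.0721) and Nr4a1 at -1.23 (adjusted p = 0.153, edgeR's test). These lists were likewise chosen with earlier results of these data known. The part of the clock, of heat shock or of early response in the levels of the glucocorticoid targets was not tested.

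The labelled cell type was checked on its markers. The 8 EC markers were present in all libraries and summed to 1471 to 2821 CPM in WT and 1823 to 2986 CPM in KO, with 0 called by edgeR and 1 at an unadjusted p under 0.05, and Erg was the most abundant of them over all 6 libraries together, though not in KO, where Cdh5 was higher. Club cell markers (10121 to 35200 CPM over all libraries, mostly Scgb1a1) and alveolar type II markers exceeded them. Summed B cell markers were at 5.34 to 15.1 CPM in WT and 52.3 to 57.6 CPM in KO. All 4 were higher in every KO than in every WT library, beside 8.59% of all genes. EdgeR called Cd79a and Ms4a1 higher in KO, and DESeq2 called all 4 higher. Over all genes, edgeR called 5 of 14625 higher and DESeq2 88 of 15470. T cell markers were low, at 0.685 to 2.29 CPM in WT and 2.83 to 4.43 CPM in KO, with 0 called by edgeR or DESeq2. Macrophage markers (44.7 to 142 CPM) and neutrophil markers (25.8 to 63.2 CPM) were also low over all libraries. Fibroblast markers lay between 209.6 and 475 CPM. Smooth muscle markers lay between 132 and 163 CPM in WT and 76.2 and 102 CPM in KO. Of the 4 smooth muscle markers edgeR called 0, and DESeq2 called 1 lower (Tagln). No marker of any list was at 0 in a library. How far each cell type contributed to the 10 genes was not tested.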

How the data were processed

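Poly(A)-enriched, stranded libraries of cells enriched for lung ECs (3 WT, 3 KO) were analysed from the deposited count tables, which hold raw counts per gene. The authors aligned reads with STAR 2.5.4b to mm10 and counted uniquely aligned reads with featureCounts 2.0.0 over exons of Ensembl release 84 (GRCm38) on the reverse strand, so reads shared by near-identical or overlapping genes were dropped, and antisense genes were told apart. Symbols and positions came from GENCODE M21 of the same build, for 47224 of 47729 genes. The kilobase lengths are the exon lengths in the tables, over all isoforms.

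The main test was edgeR 4.0.16 in R 4.3.3 (filterByExpr, TMM, glmQLFit and glmQLFTest with genotype alone, default options), adjusted by the Benjamini-Hochberg method over 14625 genes, threshold 0.05. It was first tested on simulated data. Centred log2 CPM used a prior count of 2. The smallest p of an exact permutation test on 6 such libraries is 0.1. The lowest chi-square per degree of freedom between libraries was 37.0, so none was a copy of another. Alternatives were DESeq2 1.42.0, limma-voom (limma 3.58.1), another option of glmQLFit, 3 other scalings, 2 other filters, the replicate number as a block and each library left out.

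The members and lists were chosen with earlier results of these data known. Named genes are the members, the called genes of each list and its 4 largest changes above a mean log2 CPM of 1, all genes of the hormone access and paralog lists, the most abundant marker of each cell type, and the 5 genes most like Nr3c1 and Tsc22d3. Some genes that this rule names are not reported here.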

Additional observations from a re-analysis of the deposited data

How the results depend on the processing

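The number of genes called between KO and WT was 16, and it was 187 with DESeq2, 26 with limma-voom, 26 with RLE scaling, 123 with total counts only, 152 with no filter on low counts, and 0 to 791 with each library left out (791 without WT replicate 2, 0 without any KO library, where 986 to 1112 genes had an unadjusted p under 0.05). With the replicate number as a block it was 0, with 1776 genes at an unadjusted p under 0.05, and no member or listed gene was called. The numbers were not taken to pair the libraries, since deviations of same-numbered WT and KO libraries from their group means correlated across genes at -0.11, 0.35 and 0.01, and WT replicate 1 correlated best with KO replicate 3 (0.32). Calls among the other induced targets (1) were 6, 2, 2, 2, 5, 2, 6 and 0 with DESeq2, limma-voom, legacy set to FALSE, RLE scaling, total counts only, TMM without mitochondrial genes, no filter and the replicate block, and 0 to 6 with a library left out. Calls among the receptor chaperones (1) were 9, 4, 3, 4, 4, 2, 6 and 0 in the same order, and 0 to 9 with a library left out, and their median was -1.08 with total counts only. The median log2 fold change of the 10 members was -1.79 to -1.60 under the other tests and scalings and -1.79 to -1.43 with a library left out, and it was not computed with at least 10 counts in every library, which removes Hif3a. The 9 induced members kept their sign under each of the 15 alternatives, except that Hif3a had no value under the filter of at least 10 counts.
Other signs turned. Nr3c1 was at -0.021 with DESeq2, -0.016 with RLE scaling, -0.18 with total counts only and -0.011 with TMM without mitochondrial genes, and at -0.092 to 0.10 with a library left out. Sgk3 was at -0.026, -0.022, -0.17 and -0.017 under these 4 settings and -0.000767 with no filter. With total counts only, Tsc22d4 was at -0.14, Map3k5 at -0.12 and Erg at -0.13, and with the replicate block Ddit4l was at 0.0039. With a library left out, Hsd11b2 ranged from -0.20 to 0.75, Tsc22d4 from -0.044 to 0.066, Sgk3 from -0.076 to 0.062, Ddit4l from -0.36 to 0.25, Epas1 from -0.27 to 0.015, Map3k5 from -0.055 to 0.16, Erg from -0.17 to 0.21, S100a9 from -0.72 to 0.25 and Col1a2 from -0.17 to 0.31. The cause was not tested. Fits without a library estimate the spread from the remaining 5. For Hif3a the depth limits the precision, with 5 to 135 reads per library.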
